A study of Arabidopsis thaliana with 12 samples.

Results

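In Arabidopsis seedlings exposed to hydrogen peroxide (H2O2), 68 of the 20972 transcripts listed were higher at 2 min than at 0 min and had, on average, returned to the 0 min level at 8 min. They were chosen by that pattern. The normalized count of each transcript, which is the number of reads on the gene divided by a size factor of its library, was taken as log2(normalized count + 1). A transcript was included when its mean normalized count was at least 50, its mean at 2 min was at least 0.3 above its mean at 0 min, all 3 libraries at 2 min were above all 3 at 0 min, and its mean at 8 min was between -0.15 and 0.15 of its mean at 0 min. Of the 16378 genes with a mean of at least 50, 630 met the conditions at 2 min. At 8 min, 68 of these (10.8%) were back within 0.15, 557 were still above it and 5 were below it. The differences of 2 and 8 min from 0 min were therefore set by the choice and are described below without a test. The 4 min libraries took no part in the choice, apart from the mean normalized count.

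The 12 libraries came from whole seedlings of wild-type Col, the standard laboratory accession, at 5 days of age, grown in liquid Murashige and Skoog medium on a shaker in constant light. Seedlings received 1 mM H2O2 and were frozen at 2, 4 or 8 min, and those of the 0 min group received distilled water. Each group had 3 replicates of about 100 to 150 pooled seedlings. A water-treated group at 2, 4 or 8 min was not analysed here, so the effects of H2O2 and of elapsed time or handling cannot be told apart, and in a bulk sample a smaller share of a cell type and less RNA per cell cannot be told apart either.

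H2O2 is a reactive oxygen species (ROS) that plant cells make at the plasma membrane and in organelles, and that also acts as a signal between cells during the ROS wave. Within minutes it changes the steady-state level of transcripts for receptors, transcription factors (TFs), ubiquitin ligases and detoxifying enzymes. The steady-state level of a transcript depends on its synthesis and on its decay, and RNA sequencing of whole seedlings reads only their balance.

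Depth was between 13558388 and 26618274 reads on genes per library. All 17 marker transcripts of 9 cell types of the seedling, fixed for the shoot, guard cells, root, vasculature and dividing cells and for seed storage, were listed. Only genes with at least 1 read in every library are listed, so none of them could be at 0. The xylem marker VND7 was low, with normalized counts of 2.6 to 9.8. The seed storage transcript CRA1, which encodes a cruciferin, varied widely: its normalized count was 22999 to 24868 at 0 min, 2965 to 30132 at 4 min and 9465 to 42935 at 8 min. This spread was within time points, and its part in the results below was not tested. At 2 min 12 of the 17 markers had a lower mean than at 0 min and 5 a higher one, where 51.1% of all genes with a mean of at least 50 had a higher one. All libraries at 2 min were below all at 0 min for 6 markers, with none above. Of all genes with a mean of at least 50, 10.6% were above in this way. The share simply below was not counted, so the 6 markers have no matching share. With a mean also at least 0.3 lower, a stricter condition that not all 6 markers met, 3.32% of these genes were below. Among these 6, the differences were -0.65 for LHCB3, a light-harvesting protein of the shoot, and -0.23 for the photosystem protein PSAD1. They were -0.62 for KNOLLE and -0.40 for CYCB1;1, both of dividing cells, -0.45 for CASP1 of the root endodermis and -0.39 for the xylem cellulose synthase IRX3. Markers of the same cell types also went the other way. The 5 higher means were those of RBCS1A of the shoot (0.13), SCR of the root endodermis (0.11), FAMA (0.44) and MYB60 (0.03) of guard cells, and RHD6 of the root epidermis (0.07). LHCB3 was at 59303 to 73311 at 0 min and at 38057 to 47740 at 2 min, and KNOLLE at 182 to 234 and at 120 to 143. Fewer cells of a type and less RNA per cell cannot be told apart, and the part of these shifts in the members' levels was not tested.

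The promoters of 4 members are shown because the results turn on these genes: AT3G23450 is the member whose level at 4 min passed the test, CRK18 and PDF1.4 had large differences at 2 min and a wide spread at 8 min, and AT1G30720 belongs to the pair of members that are neighbors in the genome. Each run is the 250 bases before the annotated start in RefSeq's TAIR10.1, read 5′ to 3′ on the gene's own strand. Capitals mark any match, on either strand, to the 8 motifs named in the next paragraph.
AT3G23450 (chr3:8409798-8410047, + strand): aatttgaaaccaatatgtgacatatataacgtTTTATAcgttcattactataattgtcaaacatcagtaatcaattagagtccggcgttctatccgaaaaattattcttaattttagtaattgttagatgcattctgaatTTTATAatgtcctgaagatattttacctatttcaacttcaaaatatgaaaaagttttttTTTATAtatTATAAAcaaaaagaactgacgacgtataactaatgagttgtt
CRK18 (chr4:12170081-12170330, - strand): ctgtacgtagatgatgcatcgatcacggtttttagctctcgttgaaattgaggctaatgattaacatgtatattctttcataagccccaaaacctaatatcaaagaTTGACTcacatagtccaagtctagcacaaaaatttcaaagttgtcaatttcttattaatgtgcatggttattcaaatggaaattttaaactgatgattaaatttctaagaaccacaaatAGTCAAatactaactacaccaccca
PDF1.4 (chr1:6782217-6782466, - strand): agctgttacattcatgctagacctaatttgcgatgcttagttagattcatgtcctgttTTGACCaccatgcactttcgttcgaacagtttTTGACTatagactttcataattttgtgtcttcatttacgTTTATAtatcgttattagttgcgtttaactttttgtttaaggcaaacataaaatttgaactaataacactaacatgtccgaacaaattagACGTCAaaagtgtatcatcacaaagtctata
AT1G30720 (chr1:10897675-10897924, + strand): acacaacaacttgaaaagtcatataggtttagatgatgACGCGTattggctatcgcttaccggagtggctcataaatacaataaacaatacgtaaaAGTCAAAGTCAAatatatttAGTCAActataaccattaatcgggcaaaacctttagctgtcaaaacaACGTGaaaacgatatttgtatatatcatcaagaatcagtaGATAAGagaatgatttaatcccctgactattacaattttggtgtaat
The promoters differed in what they held. In AT3G23450 all 4 matches were to TATAAA. CRK18 had 2 W-box matches, and PDF1.4 had 2 W-box matches and 1 match each to TGACGT and TATAAA. AT1G30720 had 3 W-box matches, a pair of them side by side in its longest capital run. It also had 2 matches to CGCGT, 1 on each strand of the same stretch, and 1 each to ACGTG and GATAAG.

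Across the 68 promoters, the W-box (TTGACC or TTGACT, bound by WRKY TFs) was found in 20 (29.4%), beside 28.03% of the 16296 promoters of genes with a mean of at least 50. ACGTG, the core of the abscisic acid response element, was found in 17 (25%, beside 23.8%), and CGCGT, the core bound by CAMTA factors, in 6 (8.82%, beside 7.47%). TATAAA was found in 32 (47.1%, beside 45.8%) and AAACCCTA, the telo-box, in 4 (5.88%, beside 3.47%). In percentage points, these shares were close to those of all promoters, though the telo-box share rests on only 4 promoters. Gaps of more percentage points were seen for TGGGCC, the site II element, which was in 3 promoters of members (4.41%) and in 17.7% of all, for TGACGT, the as-1 core bound by TGA factors, in 9 (13.2%, beside 8.12%), and for GATAAG in 13 (19.1%, beside 12.7%). ACGTG and TGACGT overlapped in the promoters of 2 members. These matches are descriptions of the letters in this window, and none was tested.

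The members were mostly modest in size of change and varied in abundance. At 2 min they were 0.30 to 0.84 above 0 min on the log2 scale, with a median of 0.36, and at 8 min the median was 0.07. At 4 min, the median difference from 0 min was 0.25, beside -0.01 for all genes with a mean of at least 50, and 65 of the 68 were above 0. The median transcript kept 66.7% of its 2 min difference at 4 min. Thus, for most members the level at 4 min lay between those at 2 and 8 min: 62 of 68 were lower at 4 min than at 2 min, and 62 of 68 were lower at 8 min than at 4 min, as means of 3 libraries, beside 52.3% and 48.6% of all genes. Since members were selected to be low at 0 and 8 min and high at 2 min, part of this order is built into the choice.

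**Figure D1:**
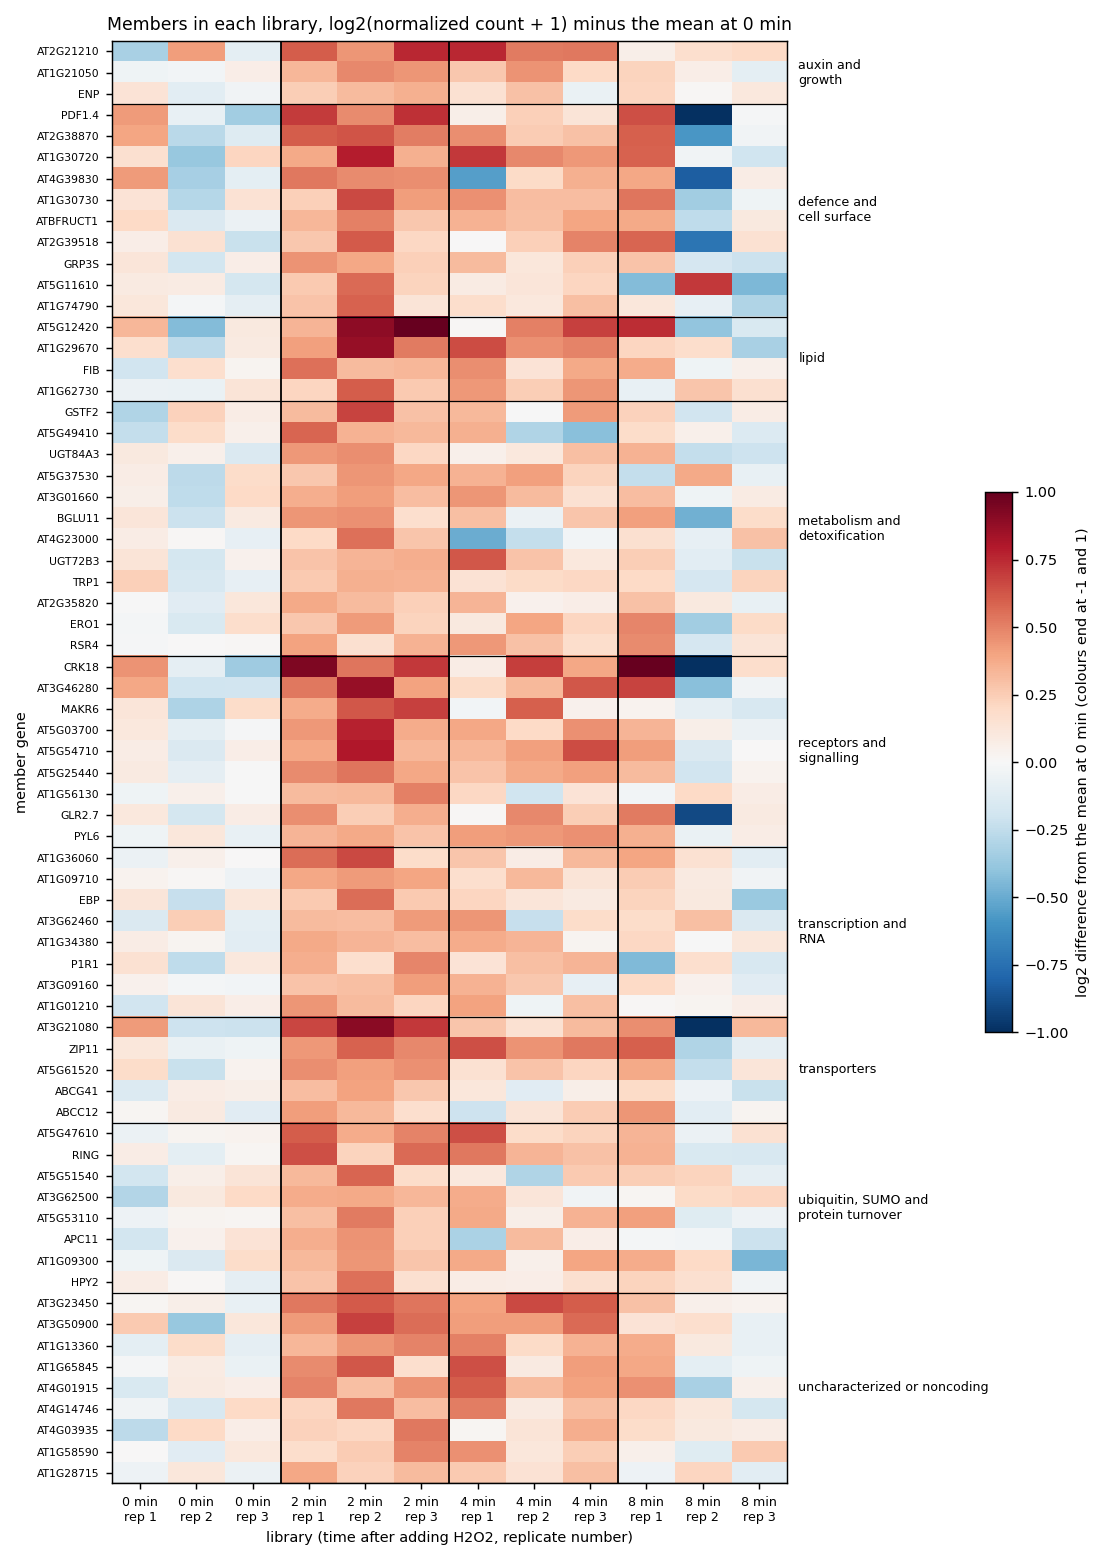
Log2 difference of each of the 68 members (vertical axis, grouped by role) from its own mean at 0 min, in each of the 12 libraries (horizontal axis, by minutes and replicate number); red is higher and blue lower, and colors end at -1 and 1. The 2 and 4 min columns are mostly red, and at 8 min the column of replicate 1 is mostly red while replicates 2 and 3 are mostly pale or blue.

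The return at 8 min differed among the 3 libraries. In replicate 1 the median of the 68 members was 0.29 above the mean at 0 min, close to the medians of the 4 min libraries (0.33, 0.24 and 0.30), whereas it was -0.05 in replicate 2 and -0.04 in replicate 3. Replicate 1 was the highest of the 3 at 8 min for 54 of the 68 members (79.4%), beside 35.4% of all genes with a mean of at least 50. In that library 54 members were more than 0.15 above the mean at 0 min (79.4%, beside 26.96% of all genes) and 49 were above all 3 libraries at 0 min (72.1%, beside 30.7% of all genes). The mean within 0.15 of 0 min was thus an average of a high library and lower ones, and only 1 member had each of its 3 values at 8 min within 0.15 of its 0 min mean (1.47%, beside 24.6% of all genes). The median SD of the members at 8 min was 0.24 on the log2 scale, beside 0.12 for all genes. The other 2 libraries at 8 min were both below all 3 at 2 min for 60 of 68 members (88.2%, beside 13.8%), and all 3 were below all 3 at 2 min for 32 (47.1%, beside 5.66%). The choice used these libraries, so nothing is read from the last counts.

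**Figure D2:**
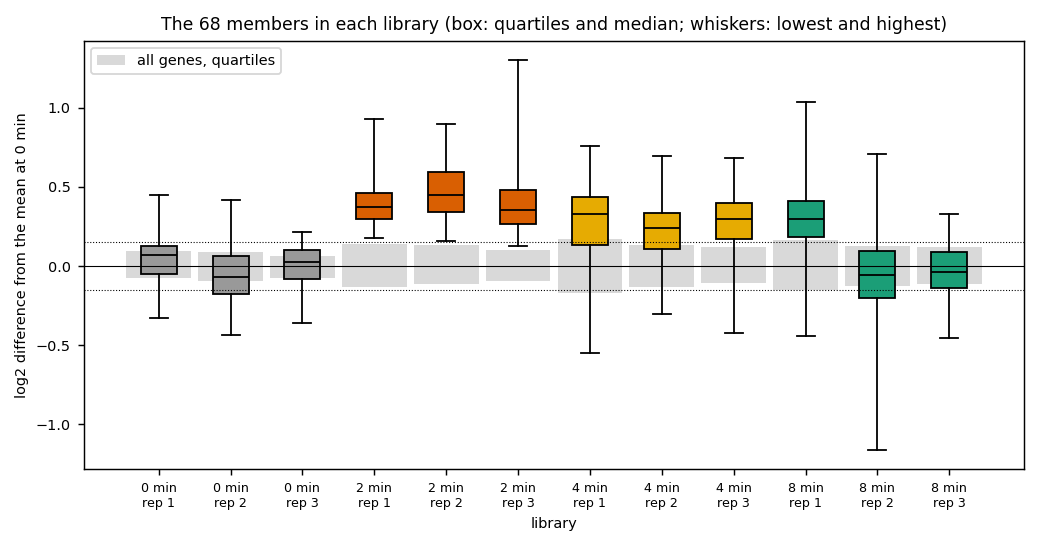
Log2 difference from the mean at 0 min (vertical axis) of the 68 members in each of the 12 libraries (horizontal axis); boxes give quartiles and median, whiskers the lowest and highest member, gray bars the quartiles of all genes with a mean of at least 50, and dotted lines the limits of -0.15 and 0.15. At 8 min the median was 0.29 in replicate 1, -0.05 in replicate 2 and -0.04 in replicate 3.

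The high level in replicate 1 at 8 min was also seen in other transcripts chosen as higher at 2 min. Among the 557 that were still more than 0.15 above 0 min at 8 min, replicate 1 was the highest at 8 min for 80.1%, with a median of 0.65 above 0 min, and 0.25 and 0.34 in replicates 2 and 3. Among the 101 transcripts of the mirror pattern, at least 0.3 below 0 min at 2 min and back within 0.15 at 8 min, replicate 1 was the lowest for 55.4%, beside 32.0% of all genes. Across the 16297 genes with a mean of at least 50 and a gene model, the gap between replicate 1 and the other 2 had a Spearman correlation of 0.11 with GC content and -0.02 with transcript length, as a description over genes that share the same libraries. Of the 17 markers, 14 were lower in replicate 1 at 8 min than in the mean of the other 2 and 3 were higher, where 51.5% of all genes were higher. The part of these in the spread at 8 min was not tested. Without replicate 1 at 8 min, the same conditions were met by 162 genes, of which 47 were among the 68. Without replicate 2 at 8 min they were met by 52 genes (31 of the 68), and without replicate 3 by 51 (45 of the 68).

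To read the pattern in libraries that had not chosen the genes, each replicate number was left out in turn, the genes were chosen on the other 2, and their values were taken in the library of the number left out, relative to its own 0 min library. With replicate 1 left out, 198 genes were chosen. In replicate 1 their median differences at 2, 4 and 8 min were 0.20, 0.17 and 0.22, and 73.7%, 66.7% and 80.3% of the genes were above 0. With replicate 2 left out, 72 genes were chosen, and the medians in replicate 2 were 0.19, 0.02 and 0.03. With replicate 3 left out, 104 genes were chosen, and the medians in replicate 3 were 0.20, 0.21 and 0.02. The medians of all genes in these libraries were between -0.01 and 0.01. Therefore the median difference at 2 min was above 0 in every library left out, at a smaller size than the 0.3 of the choice. The median at 8 min was near 0 in replicates 2 and 3 and not in replicate 1. Each of these readings sets 1 library against 1, over genes that share those libraries, so the shares of genes are descriptions. Most of the genes read were not among the 68. Few single genes repeated the whole pattern: at least 0.3 at 2 min and within 0.15 at 8 min was met in the library left out by 1.52%, 12.5% and 11.5% of the chosen genes, beside 1.19%, 2.30% and 1.29% of all genes. The sets chosen without 1 number shared 42, 17 and 31 genes with the 68.

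**Figure D3:**
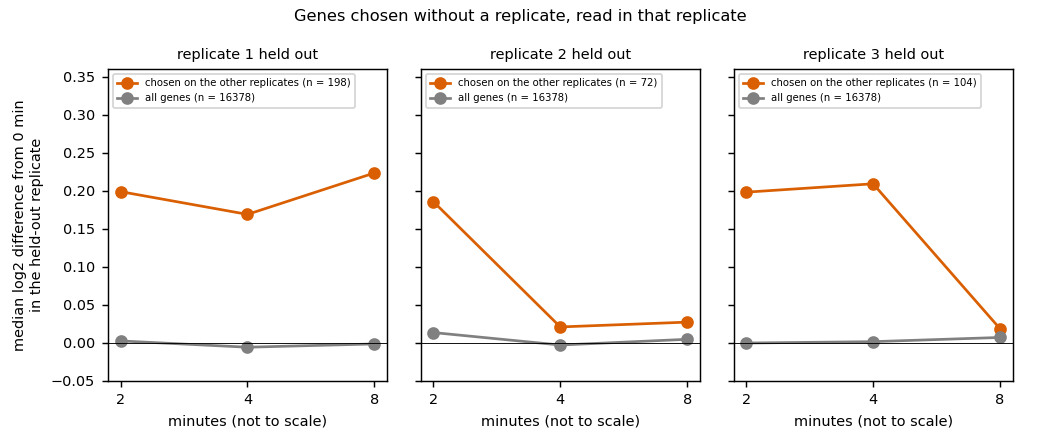
Median log2 difference from 0 min (vertical axis) at 2, 4 and 8 min (horizontal axis) in the replicate left out, for genes chosen on the other 2 replicates (orange) and for all genes with a mean of at least 50 (gray). At 2 min the orange medians were 0.20, 0.19 and 0.20; at 8 min they were 0.22 in replicate 1, 0.03 in replicate 2 and 0.02 in replicate 3.

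The level at 4 min was compared with 0 min by limma across the 19485 genes whose normalized count averaged at least 10, with the Benjamini-Hochberg adjustment over all of them. The 0 min libraries had been used by the choice, which favors low values there. At an adjusted p of 0.05, 1 of the 68 members was enhanced at 4 min (AT3G23450) and 0 were lower, where 0.754% of all genes tested were called higher and 0.0565% lower. The fit shares 1 spread across time points. Over all genes, 147 were called higher and 11 lower, and 318 and 54 when replicate 1 at 8 min was left out. At an unadjusted p of 0.05, 23 of the 68 were higher and 0 lower, where 8.6% of all genes were higher and 7.02% lower. All 3 libraries at 4 min were above all 3 at 0 min for 26 members (38.2%), where this held for 11.1% of all genes with a mean of at least 50, and below them for 0 members, where this held for 9.8%. DESeq2 on the recovered reads called 4 members higher (AT3G23450, AT2G21210, AT1G29670 and PYL6), where it called 1.89% of all genes higher, and edgeR called AT3G23450.

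Between 4 and 8 min, 0 members passed limma's test, with 14 lower and 1 higher at an unadjusted p of 0.05, where 1.04% of all genes were lower and 1.76% higher. DESeq2 called 1 member lower, AT3G23450, where 0.0103% of all genes were called lower, and edgeR called 0. All 3 libraries at 4 min were above all 3 at 8 min for 5 members, AT2G21210, AT1G29670, AT3G23450, AT3G50900 and PYL6, where this held for 2.58% of all genes, and below them for 0 members, where this held for 3.52%. Between 2 and 4 min, 0 members passed with limma, DESeq2 or edgeR, with 4 lower at an unadjusted p of 0.05 by limma (AT5G49410, AT1G56130, AT4G23000 and ABCG41), where 1.09% of all genes were lower, and 0 higher, where 2.01% were. Of all genes, 0.0821% were called higher from 2 to 4 min by limma and 0% lower. All 3 libraries at 4 min were below all 3 at 2 min for 12 members, where this held for 4.24% of all genes, and above them for 1 member (PYL6), where this held for 4.73%. The 2 and 8 min libraries had been used by the choice.

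**Figure D4:**
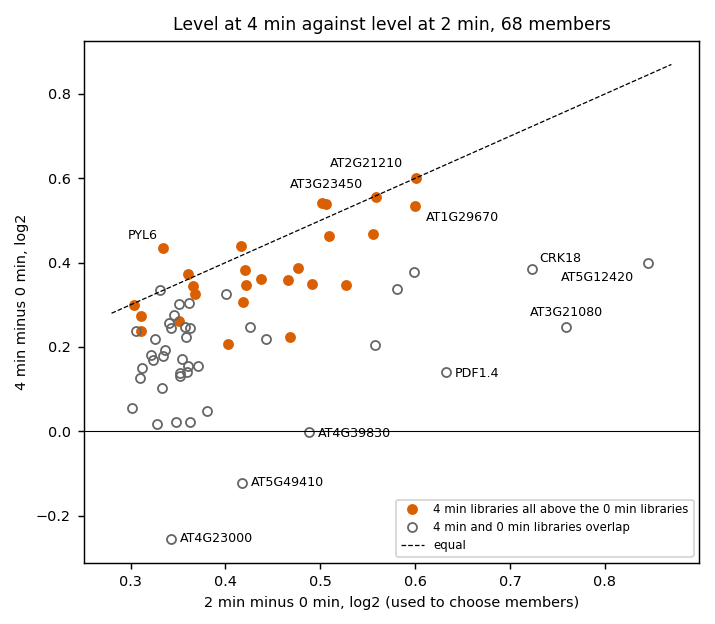
Log2 difference from 0 min at 4 min (vertical axis) against that at 2 min (horizontal axis), each point 1 of the 68 members; filled points are the 26 whose 4 min libraries were all above the 0 min libraries, and the dashed line marks equal differences. Most points lie below the line and above 0, with AT3G23450 and AT2G21210 on it and AT4G23000 at -0.25.

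AT3G23450, on chromosome 3 (8410048 to 8412213, + strand, 1 exon), encodes a protein with no annotated function. Its normalized counts were 916, 942 and 857 at 0 min, 1303, 1383 and 1313 at 2 min, 1197, 1426 and 1377 at 4 min, and 1108, 936 and 926 at 8 min. The libraries at 2 and 4 min were all above those at 0 and 8 min, with replicate 1 the highest at 8 min. The difference at 4 min was 0.56 ± 0.09 (SE, n = 3) on the log2 scale, with an adjusted p of 0.00841 by limma. Here and below, the SE is that of limma's fit to all 12 libraries, with 3 libraries in each group. Its spread is taken over all 4 time points, so the spread at 8 min enters it. The adjusted p ranged from 3.44e-06 with DESeq2 to 0.295 without replicate 3, and it was 0.0719 without replicate 2, so with a replicate number left out at every time point the call was lost in these cases. The difference from 4 to 8 min was -0.43, with an adjusted p of 0.232 by limma and 0.00801 by DESeq2. The transcript had the highest GC content of the members (48.2%). With a correction for GC content the difference from 0 min was 0.73 at 4 min and 0.25 at 8 min. Without the correction the 8 min difference was 0.13. The corrected 8 min value lay outside the limits of the choice, so with this correction AT3G23450 did not meet the choice. Over 19384 genes, GC content and the difference from 0 min had a Spearman correlation of -0.10 at 2 min. The correlation was -0.20 at 4 min and -0.21 at 8 min.

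AT1G29670, on chromosome 1 (10375599 to 10377871, + strand, 5 exons), encodes a GDSL-type lipase or acylhydrolase, a family of secreted enzymes that act on cutin and other lipids. Its normalized counts were 5066, 3765 and 4798 at 0 min, 5984, 8230.0 and 6472 at 2 min, 7083, 6184 and 6344 at 4 min, and 5236, 5081 and 3591 at 8 min. All libraries at 2 and 4 min were above all at 0 and 8 min. The 4 min difference was 0.53 ± 0.16 (SE, n = 3), with an adjusted p of 0.134 by limma and 0.0287 by DESeq2. It was the only member among the 41 GDSL-annotated transcripts with a mean of at least 50 (2.44%, beside 0.415% of all genes), whose median differences were -0.10 at 2 min and -0.06 at 8 min.

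AT2G21210 encodes a SAUR-like protein, a family of small auxin-responsive proteins that act in cell expansion. Its normalized counts were 566, 949.8 and 665 at 0 min, 1081, 966 and 1198 at 2 min, 1199, 1016 and 1023 at 4 min, and 738, 799 and 813 at 8 min. Replicate 2 at 0 min stood close to the lowest library at 2 min, and the 4 min libraries were above all others at 0 and 8 min. The 4 min difference was 0.60 ± 0.15 (SE, n = 3), the largest of the 68, with an adjusted p of 0.0802 by limma and 0.0147 by DESeq2. Its transcript shares 9.39% of its 50-base stretches with AT2G21200 on the same strand, so reads from this region could have been counted on either gene.

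PYL6 encodes an abscisic acid receptor of the PYR/PYL family. Its normalized counts were 349.6, 391 and 342 at 0 min, 457, 468 and 439 at 2 min, 481, 486 and 496 at 4 min, and 462, 344 and 379 at 8 min. At 4 min its libraries were above those of every other time point, and replicate 1 at 8 min was as high as the 2 min libraries. The 4 min difference was 0.44 ± 0.10 (SE, n = 3), with an adjusted p of 0.0598 by limma and 0.0148 by DESeq2.

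**Figure D5:**
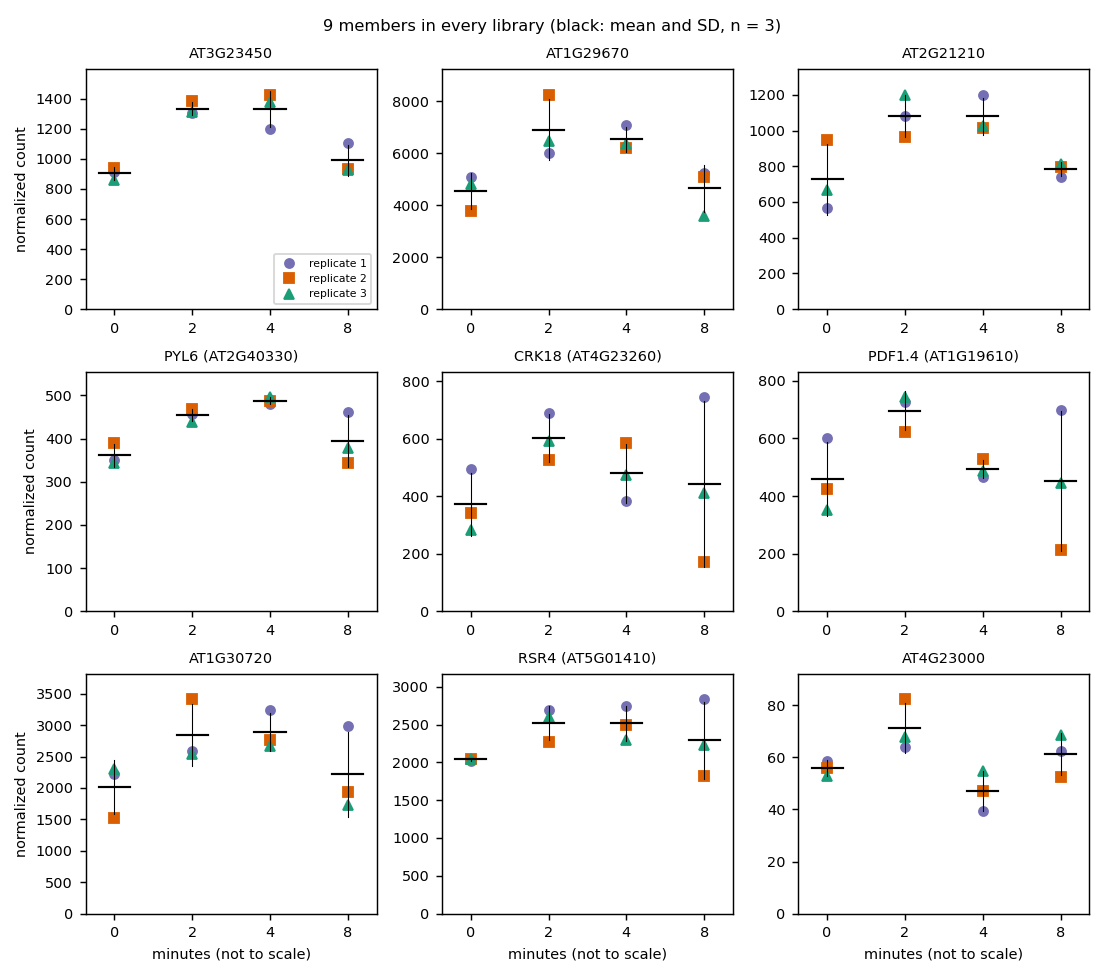
Normalized count (vertical axes, from 0) of 9 members in each library at 0, 2, 4 and 8 min (horizontal axes); symbols are replicates 1 to 3 and black lines the mean and SD of 3 libraries. AT3G23450, AT1G29670 and AT2G21210 have 2 and 4 min points above those at 0 and 8 min, while CRK18 and PDF1.4 spread from 170.2 to 744 and from 213 to 699.9 at 8 min.

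The members with receptor and signaling annotations numbered 9, with differences of 0.33 to 0.72 at 2 min and 0.05 to 0.46 at 4 min. CRK18, a cysteine-rich receptor-like kinase of the plasma membrane, had normalized counts of 494, 340.2 and 282 at 0 min, 691, 525 and 590.2 at 2 min, 382, 586 and 473 at 4 min, and 744, 170.2 and 409.9 at 8 min. At 8 min its replicates 1 and 2 were the highest and the lowest of all 12 libraries, so the mean near that of 0 min came from libraries on opposite sides. Its difference was 0.72 at 2 min, 0.38 ± 0.38 (SE, n = 3) at 4 min with an adjusted p of 0.666 by limma, and 0.04 at 8 min. That SE takes in the spread at 8 min, where the SD of the counts was 288, beside 109 at 0 min and 102 at 4 min. The transcript shares 5.21% of its 50-base stretches with the next gene of the kinase cluster, EMB1290.

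AT3G46280, a kinase-like protein, showed the same order of libraries at 8 min. Its normalized counts were 2805, 1870.3 and 1879 at 0 min, 3084, 3929 and 2827 at 2 min, 2449, 2679.6 and 3299 at 4 min, and 3428, 1603 and 2092 at 8 min. Replicate 1 was the highest at 0 and at 8 min, and the highest library at 0 min was only just under the lowest at 2 min. GLR2.7, a glutamate receptor-like channel subunit, was at 115, 42.4 and 85.3 at 8 min, beside 70.7 to 86.2 at 0 min. The other members of this group were the protein kinase AT5G25440, the leucine-rich repeat kinase AT1G56130, the lectin-domain protein AT5G03700, the membrane-associated kinase regulator MAKR6 and the ankyrin-repeat protein AT5G54710, with 4 min differences of 0.05 to 0.46. Of all 967 kinase-annotated transcripts with a mean of at least 50, 5 were members (0.517%, beside 0.415% of all genes), and 3 of the 1126 tested were called higher at 4 min and 0 lower by limma.

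Defense and cell surface transcripts formed a group of 10, and here the gap between replicate 1 and the other libraries at 8 min was widest, with a median of 0.72, beside 0.34 for the 68. PDF1.4, a plant defensin, a small secreted antimicrobial peptide, had normalized counts of 602, 424 and 352 at 0 min, 727, 621 and 743 at 2 min, 466, 529 and 489 at 4 min, and 699.9, 213 and 445 at 8 min. By 4 min its libraries were all below those at 2 min and within the range at 0 min, and the 4 min difference was 0.14 ± 0.31 (SE, n = 3), with an adjusted p of 0.865 by limma. This SE too takes in the spread at 8 min, where the SD of the counts was 244, beside 129 at 0 min and 32.0 at 4 min. AT2G38870, a serine protease inhibitor of the potato inhibitor I type, was at 1366, 863 and 953 at 0 min, 1583, 1605 and 1480.2 at 2 min, 1434, 1241 and 1277 at 4 min, and 1571, 696 and 1014 at 8 min. As for PDF1.4, replicate 1 was the highest and replicate 2 the lowest at 8 min. AT4G39830, a cupredoxin related to ascorbate oxidase, did not differ at 4 min in the mean (a log2 difference within 0.01 of 0), with values of 74.1, 124 and 140.0 around its 0 min values of 147, 86.4 and 102.

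The neighbors AT1G30720 and AT1G30730 on chromosome 1 (10897925 to 10899975 and 10900681 to 10902626, both on the + strand) encode FAD-binding berberine bridge-like enzymes, which oxidize cell wall fragments or alcohols, and were the only pair of members next to each other. AT1G30720 was at 2221, 1522 and 2305 at 0 min, 2581, 3409.8 and 2539.8 at 2 min, 3239, 2762 and 2676 at 4 min, and 2988, 1935 and 1725 at 8 min. AT1G30730 was at 991, 739.8 and 994 at 0 min, 1062, 1419 and 1203 at 2 min, 1237, 1118 and 1116 at 4 min, and 1306, 708 and 872 at 8 min. In both genes the 4 min libraries were above the 0 min libraries, replicate 2 was the highest at 2 min and replicate 1 the highest at 8 min. The 4 min differences were 0.54 and 0.36, with adjusted p of 0.211 and 0.367 by limma. They shared 30 of their 50-base stretches (1.58% of those of AT1G30730). Across the genome, the 132 neighbors of members that were not members themselves had a median difference of 0.02 at 2 min, beside 0.00 for all genes.

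Of the other surface members, the glycine-rich protein GRP3S of the cell wall was at 21386, 17354 and 20593 at 0 min, 26911, 25726 and 23267 at 2 min, 24494, 21361 and 23237 at 4 min, and 24032, 17564 and 16989 at 8 min. ATBFRUCT1, a cell wall invertase that splits sucrose outside the cell, was at 3555, 2808 and 2974 at 0 min, 3890.4, 4388 and 3724 at 2 min, 3930.2, 3806 and 4069 at 4 min, and 4035, 2596 and 3318 at 8 min. For the invertase the 4 min libraries were all above those at 0 min, and for GRP3S the lowest library at 4 min (replicate 2) was just under the highest at 0 min. AT1G74790, annotated only as a catalytic protein, the exostosin AT5G11610 and the membrane protein AT2G39518 made up the rest, with 4 min differences of 0.14 to 0.25. AT5G11610 went the other way at 8 min, with replicate 2 the highest (51.6, 115 and 51.0).

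TF and RNA-related members numbered 8, with smaller differences at 2 min (0.33 to 0.47). EBP, an AP2/ERF-type TF of the ethylene and low-oxygen response, was at 5631, 4403 and 5584 at 0 min, 6199.7, 7612 and 6193 at 2 min, 6001, 5630.4 and 5503 at 4 min, and 6040.5, 5549.5 and 3991 at 8 min. All its 4 min libraries were below all its 2 min libraries, and they overlapped those at 0 min. AT1G36060, another AP2/ERF-type TF, was at 1177, 1271 and 1224 at 0 min, 1804, 1934 and 1392 at 2 min, 1483, 1286 and 1531 at 4 min, and 1610.5, 1358 and 1137 at 8 min. It stayed above 0 min in all 4 min libraries. The others were the homeodomain-like AT1G09710, the TF P1R1, the RNA polymerase subunit AT1G01210, the RNA-binding protein AT3G09160, the exonuclease AT1G34380 and the nuclease-like AT3G62460, with 4 min differences of 0.13 to 0.26. Of these, only P1R1 was in the family list of TFs and zinc fingers, which was a search of the annotated names for those words. The list held 528 transcripts with a mean of at least 50, of which 0.189% were members, beside 0.415% of all genes. It did not hold EBP or AT1G36060, so this is not the share among all TFs.

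Protein turnover was represented by 8 members. The RING-type ubiquitin ligase BOI (listed as RING, AT4G19700), which limits cell death in pathogen and stress responses, was at 258, 228 and 248 at 0 min, 382, 285 and 362 at 2 min, 353, 309.6 and 299 at 4 min, and 310.5, 219.6 and 219 at 8 min. The RING protein AT5G47610 was at 792, 843 and 847 at 0 min, 1261, 1069.7 and 1166 at 2 min, 1292, 939 and 966 at 4 min, and 1049, 796 and 921 at 8 min. Both had 4 min libraries all above 0 min, with differences of 0.39 and 0.35 and adjusted p of 0.215 and 0.196 by limma. HPY2, a SUMO ligase that restrains the switch to endoreduplication, APC11, the RING subunit of the anaphase-promoting complex, the RING protein AT5G53110, the F-box protein AT3G62500 and the peptidases AT5G51540 and AT1G09300 had 4 min differences of 0.02 to 0.28. Of 660 ubiquitin-annotated transcripts with a mean of at least 50, 5 were members (0.758%, beside 0.415% of all genes).

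In the lipid group of 4, AT5G12420, a wax ester synthase-like acyltransferase, had the largest difference of all members at 2 min (0.84). It was at 67.6, 39.3 and 57.2 at 0 min, 67.7, 100.3 and 133 at 2 min, 53.9, 76.1 and 86.3 at 4 min, and 90.0, 40.5 and 48.0 at 8 min. The lowest library at 2 min was barely above the highest at 0 min, and at 4 and 8 min the libraries overlapped those at 0 min. FIB, a plastoglobule fibrillin, and AT1G62730, annotated as a terpenoid synthase, had 4 min differences of 0.33 and 0.37. The lipid, cutin and wax list held 317 transcripts with a mean of at least 50, and AT1G29670 was its only member here (0.315%, beside 0.415% of all genes). It too was a search of annotated names and did not hold AT5G12420, so this is not the share among all lipid genes.

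Of the 5 transporters, ZIP11, a zinc transporter, was at 184, 163 and 165 at 0 min, 231, 257 and 238 at 2 min, 267, 234 and 246 at 4 min, and 258, 138 and 159.8 at 8 min. Its 4 min libraries were all above those at 0 min, with a difference of 0.54 ± 0.17 (SE, n = 3) and an adjusted p of 0.167 by limma. AT3G21080, annotated as ABC transporter-like, was at 59.7, 38.2 and 38.1 at 0 min, 71.2, 83.6 and 73.0 at 2 min, 53.9, 49.3 and 55.5 at 4 min, and 61.4, 19.3 and 55.9 at 8 min. Here the 4 and 8 min libraries were all below those at 2 min. The major facilitator AT5G61520 and the ABC transporters ABCG41 and ABCC12 had 4 min differences of 0.22, 0.02 and 0.06, and all 3 at 4 min were below all 3 at 2 min for AT5G61520 and ABCG41.

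Metabolism and detoxification held the most members, 12, with a median difference of 0.35 at 2 min and 0.21 at 4 min. RSR4, a pyridoxal phosphate synthase subunit of vitamin B6 synthesis, which quenches ROS, was at 2017, 2048 and 2050.1 at 0 min, 2693, 2272 and 2601 at 2 min, 2750.0, 2496 and 2298 at 4 min, and 2833, 1819 and 2228 at 8 min. Its 0 min libraries were nearly equal, the 2 and 4 min libraries were all above them, and at 8 min replicate 1 was the highest and replicate 2 the lowest of all 12. GSTF2, a glutathione transferase, was at 220.4, 320.0 and 286 at 0 min, 338, 436 and 333 at 2 min, 340.2, 271 and 366 at 4 min, and 319, 238 and 286 at 8 min. Much of its transcript (50.6% of its 50-base stretches) is the reverse complement of TOC159, which was itself 0.25 higher at 2 min. The paper names a stranded library kit, but the strand used in counting is not given in the sources used here. Whether reads of the pair were kept apart is therefore not known.

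The glucosyltransferases UGT84A3 and UGT72B3, the beta-glucosidase BGLU11, the tryptophan pathway enzyme TRP1, the ureidoglycolate hydrolase AT2G35820, the endoplasmic reticulum oxidoreductin ERO1, the dehydrogenase-like AT5G37530 and the methyltransferase-like AT3G01660 had 4 min differences of 0.15 to 0.34. The last 2 of the 12 were the lowest of the members at 4 min. AT4G23000, a calcineurin-like phosphoesterase, was at 58.8, 56.1 and 52.7 at 0 min, 64.2, 82.3 and 67.8 at 2 min, 39.3, 47.1 and 54.6 at 4 min, and 62.5, 52.7 and 68.6 at 8 min. Its 4 min libraries were below all those at 2 min and overlapped those at 0 min, with a difference from 0 min of -0.25 ± 0.17 (SE, n = 3) and an adjusted p of 0.489 by limma. AT5G49410, annotated as a thiamine-phosphate synthase, was at 59.5, 37.5 and 34.3 at 4 min and 39.2, 52.8 and 48.1 at 0 min, with a difference of -0.12.

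The growth-related group of 3 held AT2G21210, the NPH3-family protein ENP, which acts with PINOID in auxin-dependent organ formation, and the MIZU-KUSSEI-like AT1G21050. AT1G21050 was at 395, 399.7 and 427 at 0 min, 513, 568 and 552 at 2 min, 489.6, 556 and 468 at 4 min, and 474, 426 and 380.5 at 8 min. Its 4 min libraries were all above those at 0 min, with a difference of 0.31 and an adjusted p of 0.147 by limma, and ENP had 0.13. The remaining 9 members, AT3G23450 among them, encode uncharacterized proteins or noncoding RNAs, and 7 of these 9 had all 4 min libraries above those at 0 min, as did 38.2% of all members and 11.1% of all genes. AT3G50900 was at 97.0, 61.7 and 87.2 at 0 min, 109, 129.9 and 119 at 2 min, 108, 108 and 119.8 at 4 min, and 88.9, 90.5 and 76.5 at 8 min, with the 2 and 4 min libraries above all others.

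Other families that H2O2 could reach had 0 members: the ribosomal proteins (300 transcripts with a mean of at least 50), translation factors (101), photosystem and light-harvesting proteins (58), TIR-NBS-LRR receptors (105), heat shock proteins and chaperones (205), cytoskeleton (343), cell cycle and histones (146) and calcium-related proteins (170). Members were 0.415% of the genes with a mean of at least 50, so few would be found in families of these sizes at that share. These families were also taken by a search of annotated names, which can miss genes.

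The members had shorter transcripts with fewer exons than other genes. The median transcript length was 1610.5 bases, beside 1801 for all genes with a mean of at least 50, and the median number of exons was 3, beside 5. The median GC content was 41.0%, beside 41.4%, and the median of the mean normalized counts was 300.3, beside 387. Chromosome 1 held 22 of the 68 (32.4%, beside 25.9% of all genes), chromosome 2 held 7 (10.3%, beside 15.04%), and chromosomes 3, 4 and 5 held 12, 12 and 15.

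Transcripts just inside and just outside the limits of the choice differed little. At the limit of 0.3 at 2 min, ABCC12 (0.30) and RSR4 (0.30) were inside, and AT1G35350 (0.30) and AT4G13040 (0.30) outside. At 0.15 at 8 min, AT1G36060 (0.15) and AT5G47610 (0.15) were inside, and COX17 (0.15) and AT1G68730 (0.16) outside. At -0.15, PDF1.4 (-0.15) and P1R1 (-0.14) were inside, and CRK13 (-0.17) and DAR5 (-0.18) outside. CRK13, of the same receptor-like kinase family as CRK18, was at 564, 210.0 and 356 at 8 min, in the same order of libraries. At the mean of 50, AT5G49410 (50.2) and APC11 (51.0) were inside, and AT2G35030 (46.7) and AT3G09060 (45.9) outside.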

How the data were processed

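The analysis started from a table of the 12 RNA-Seq libraries deposited by the authors. Single-end reads had been checked with FastQC 0.11.7 and mapped by STAR 2.4.0.1 onto the TAIR10 genome; the program and strand used to count reads are not given in the sources used here. The deposited values are a signal, reads per gene divided by 1 DESeq2 (1.20.0) size factor per library. Whole reads were recovered for 100% of values, within 0.001 reads, and only genes with at least 1 read in every library are listed.

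Values were taken as log2(normalized count + 1). Tests used limma 3.58.1 with a trend, with time as the only factor and the 12 libraries fitted together, 2-sided, on 19485 genes with a mean of at least 10, with Benjamini-Hochberg adjustment in each comparison and a threshold of 0.05. DESeq2 1.42.0 and edgeR 4.0.16 were run on the recovered reads. The scripts were tested on simulated data. With 3 replicates a group, p-values measure the spread between these replicates. The paper states that the experiment was repeated 3 times, and the labels do not say whether the replicates were separate cultures. An exact permutation of 3 against 3 libraries could not go below 0.1. Gene models, lengths, GC content (20858 of 20972 genes, all 68 members) and promoters came from RefSeq's TAIR10.1; promoters are the 250 bases before the annotated gene start, read from its genome.

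Named genes were AT1G29670, which the study names, the 8 members with the largest 2 min differences, the 8 highest means, the 5 largest and 5 smallest 4 min differences, the nearest to each limit, and up to 4 per family; other members are named by role. The members and lists were chosen with earlier results of these data known. Alternatives were another pseudocount, filter, scaling, GC or length correction, test, threshold, a separate fit, a replicate block and leaving out libraries.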

Additional observations from a re-analysis of the deposited data

How the results depend on the processing

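The number of genes that met the choice (68) was 65 to 98 with another pseudocount, a mean of at least 10, quantile normalization, TMM scaling, GC correction or length correction, with 53 to 68 of the members kept. It varied more with libraries left out, from 51 to 162 with 1 library left out and from 72 to 198 with a replicate number left out. It was 162 without replicate 1 at 8 min, 150 without replicate 3 at 2 min, 198 without replicate 1 and 104 without replicate 3 at every time point. With a 0 or 2 min library left out, fewer libraries had to lie apart, so that condition was easier to meet. Members higher at 4 min than at 0 min (1 by limma) were 4 with DESeq2 and 0 to 3 with a library or number left out: 2 without replicate 2 at 0 min, 3 without replicate 1 at 8 min, 2 without replicate 2 at 8 min and 0 without replicate 3 at every time point. Members lower at 8 min than at 4 min (0 by limma) were 1 with DESeq2 and 0 to 0 with libraries left out. The median 4 min difference of the members was 0.22 to 0.29 with libraries left out, and 0.29 without replicate 2 at 4 min. The deviations of same-numbered libraries correlated between -0.33 and 0.26 over 18 pairs, beside -0.34 to 0.46 over 36 pairs of other numbers. These values do not settle whether the numbers mark paired libraries. Between 2 and 8 min the same-numbered libraries correlated at 0.22 to 0.26 and the others at -0.23 to -0.02. With a replicate block, with or without GC correction, 1 member was higher at 4 min than at 0 min, 0 were lower at 8 min and 0 changed between 2 and 4 min.

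Among the named members, 24 of the alternative 4 min differences changed sign, all of them in 5 members. AT4G39830 (-0.00056) was 0.00024 with a pseudocount of 5, 0.025 with quantile normalization, 0.00424 with TMM scaling, 0.041 with GC correction alone or with a replicate block, 0.017 with DESeq2 and 0.026 with edgeR, and -0.26 to 0.49 with libraries left out. With libraries left out, AT5G49410, AT1G19610 (PDF1.4), AT4G15215 (ABCG41) and AT5G51540 also changed sign. Their ranges were -0.48 to 0.058, -0.033 to 0.40, -0.098 to 0.12 and -0.11 to 0.21. The median SD between libraries at 8 min was 0.12 over all genes and 0.24 over the members, on the log2 scale, which limits what 3 libraries a group can show.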
